A study of Mus musculus with 8 samples.

Results

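The mRNA levels of 30 genes of sterol and fatty acid synthesis were compared between day 6 primordial germ cell-like cells (d6PGCLCs) made in culture and primordial germ cells (PGCs) taken from female gonads at E12.5. The genes were chosen by symbol for their place in these pathways, not by a threshold on their values, and 29 of the 30 were found among the 21950 genes of the count table. Dhcr7 was not analysed here. The d6PGCLCs came from 1 female BVSC-iPSC line, derived from adult tail tip fibroblasts and carrying the Blimp1-Venus and Stella-ECFP reporters, and were collected, per the sample labels, as double-positive for both reporters, at day 8 of culture. They had been induced in medium with BMP4, SCF, LIF and EGF, and had last been fed with SCF, LIF and EGF. The E12.5 PGCs came from female gonads of inbred C57BL/6J fetuses and were sorted as positive for SSEA1 and integrin β3. Each group held 4 pools of cells from independent experiments. Culture, line and strain, and sorting gate all differed between the groups, so that none of these can be told apart from cell type.

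Cholesterol is built from acetyl-CoA through mevalonate, farnesyl diphosphate, squalene and lanosterol, and fatty acids are built from the same acetyl-CoA through malonyl-CoA. Many genes of both routes are targets of the SREBP transcription factors, which SCAP escorts out of the endoplasmic reticulum when sterols are scarce and which the INSIG proteins hold back when sterols are plentiful. In fetal gonads, sterols serve membrane growth and, in somatic cells, steroid synthesis.

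The 8 libraries held from 7991437 to 12024841 counts, and each of the 29 genes had a mean of at least 1 CPM (counts relative to library size). The germ cell markers Pou5f1, Prdm1, Tfap2c and Dppa3 were present in both groups, whereas Ddx4 and Dazl, genes of later PGCs, had means of 35.5 and 37.7 CPM in the cultured cells and of 760.4 and 1262 CPM in the fetal PGCs. The 8 measured markers of gonadal somatic cells summed to between 0.332 and 1.21 CPM in d6PGCLCs and between 2.71 and 5.74 CPM in E12.5 PGCs, and all 8 had a lower mean in d6PGCLCs. Of the steroidogenic markers Cyp17a1 and Hsd3b1 were at 0 counts in all d6PGCLC libraries and Cyp11a1 was at a mean of 0.0913 CPM or less in either group, while Star was at 6.91 and 5.71 CPM. The blood, endothelial and macrophage markers summed to between 22.97 and 36.002 CPM in d6PGCLCs and between 15.1 and 29.3 CPM in E12.5 PGCs, mostly from Tek and Cdh5. By the test described below, 2 of these 8 markers were called higher in d6PGCLCs and 1 lower, against 16.1% and 15.4% of all 21950 genes. The 2 higher were Cdh5 and Csf1r (24, 20, 13 and 12 counts against 0 in every E12.5 PGC library), and the lower was Hba-a2. Adgre1 was at 0 in all 8 libraries. Of the 11 measured dissociation response genes, 7 were called lower in d6PGCLCs and 1 higher. Among the 11487 genes with a mean of at least 1 CPM, these shares were 25.6% and 28.1%. Hspa1a, a heat shock gene whose unique reads are limited by its near-identical copy Hspa1b, was at 0.305 to 0.747 CPM in d6PGCLCs and at 4.42 to 144.4 CPM in E12.5 PGCs. E12.5 PGC replicate 2 stood apart in the sum of the 11 genes, which summed to 1193 CPM there and to between 440.8 and 591.0 CPM in the other 7 libraries. The part of these markers in the results was not tested. Without E12.5 PGC replicate 2, 16 of the 29 genes were called higher and 4 lower. Leaving out any other E12.5 PGC library gave the same counts, so they say nothing particular about replicate 2.

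Sterol regulatory sequences were looked up in the RefSeq promoter table (GRCm38.p6), which gives the 250 bases before to the 50 bases after each annotated start, and which held a window for 23 of the 29 genes. Fdft1, Fdps, Scd1, Scd2, Sqle and Stard4 were without one. Stretches before the start that lay in no annotated gene are given 5′ to 3′ for the genes of largest rise in the entry step, the mevalonate steps and the steps after lanosterol (Hmgcs1, Mvk, Msmo1), for the regulator that rose most (Srebf2) and for the regulator that fell (Scap). Capitals mark exact matches to the sterol regulatory element TCACNCCAC and to the NF-Y box CCAAT on either strand. ATTGG is thus an NF-Y box on the other strand.
Hmgcs1 (chr13:119690101-119690350, plus strand): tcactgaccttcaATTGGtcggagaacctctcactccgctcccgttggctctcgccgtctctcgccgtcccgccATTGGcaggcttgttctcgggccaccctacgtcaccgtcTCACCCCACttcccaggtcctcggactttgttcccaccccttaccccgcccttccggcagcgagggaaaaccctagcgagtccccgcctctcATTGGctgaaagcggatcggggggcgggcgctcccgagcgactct
Mvk (chr5:114444074-114444263, plus strand): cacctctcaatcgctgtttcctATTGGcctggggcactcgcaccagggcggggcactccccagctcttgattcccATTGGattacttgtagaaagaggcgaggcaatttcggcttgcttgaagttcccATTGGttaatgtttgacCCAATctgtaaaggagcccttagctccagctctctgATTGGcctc
Msmo1 (chr8:64733579-64733828, minus strand): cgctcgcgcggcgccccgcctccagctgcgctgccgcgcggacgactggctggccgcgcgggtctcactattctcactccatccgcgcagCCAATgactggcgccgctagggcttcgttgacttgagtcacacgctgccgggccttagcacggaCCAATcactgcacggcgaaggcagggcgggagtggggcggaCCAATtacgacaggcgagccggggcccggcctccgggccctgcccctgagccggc
Srebf2 (chr15:82147019-82147268, plus strand): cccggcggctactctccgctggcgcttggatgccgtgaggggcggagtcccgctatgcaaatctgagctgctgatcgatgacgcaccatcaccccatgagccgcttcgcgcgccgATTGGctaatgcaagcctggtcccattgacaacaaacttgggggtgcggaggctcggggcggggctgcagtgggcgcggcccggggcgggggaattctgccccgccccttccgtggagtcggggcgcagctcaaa
Scap (chr9:110333038-110333287, plus strand): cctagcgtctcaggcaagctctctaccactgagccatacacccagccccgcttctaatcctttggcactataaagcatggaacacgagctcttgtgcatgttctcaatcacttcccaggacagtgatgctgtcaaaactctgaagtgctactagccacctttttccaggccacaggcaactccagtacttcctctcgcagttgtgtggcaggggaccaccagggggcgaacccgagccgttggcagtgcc

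The stretch of Hmgcs1, which encodes the synthase of HMG-CoA, held 1 match to the sterol regulatory element and 3 NF-Y boxes. That of Mvk, the mevalonate kinase gene, held 5 NF-Y boxes within 190 bases, that of Msmo1 held 3, that of Srebf2 held 1 and that of Scap held none. Searched over both strands and all windows of a gene, the NF-Y box was present for 19 of the 23 genes and for 41.1% of the 27025 genes of the promoter table. It was missing from the windows of Acaca, Acat2, Elovl6 and Scap. The GC box GGGCGG was present for 19 of the 23 genes and for 38.2% of all genes, and was missing for Acaca, Elovl6, Fasn and Pmvk. An exact match to the sterol regulatory element TCACNCCAC was found for Hmgcs1 alone of the 23 genes and for 1.44% of all genes. One to the SREBP E-box TCACGTGA was found for 0 of the 23 genes and for 1.12% of all genes. The letters of these 4 motifs do not contain one another. A match describes letters in a window and shows no binding, and these shares were not tested. Only exact letters were searched, so a window without a match can still hold a variant of the motif.

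Most genes of the cholesterol route were higher in d6PGCLCs, each by less than 2-fold, whereas the fatty acid genes moved in both directions. Taking as called a Benjamini-Hochberg adjusted p up to 0.05 in edgeR's quasi-likelihood test of the whole table, 18 of the 29 genes were called higher in d6PGCLCs, 4 were called lower (Scap, Acaca, Fasn, Scd2) and 7 were not called (Idi1, Cyp51, Hsd17b7, Sc5d, Insig1, Srebf1, Stard4). Of all 21950 genes, 16.1% were called higher and 15.4% lower. Among the 11487 genes with a mean of at least 1 CPM, the shares were 28.1% and 25.6%. The median log2 fold change (d6PGCLC over E12.5 PGC, as everywhere here) was 0.39 over the 29 genes and 0.01 over the 11487 genes. The changes were small. None of the 29 genes reached the study's additional threshold of an absolute log2 fold change of 2, which 7.24% of the 11487 genes passed, and the 18 higher genes lay between 1.24-fold and 1.95-fold. The 4 libraries of one group lay wholly above or below those of the other for 19 of the 29 genes, against 51.1% of the 11487 genes. As bulk measurements, these values cannot separate fewer cells with a transcript from less transcript per cell.

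**Figure D1:**
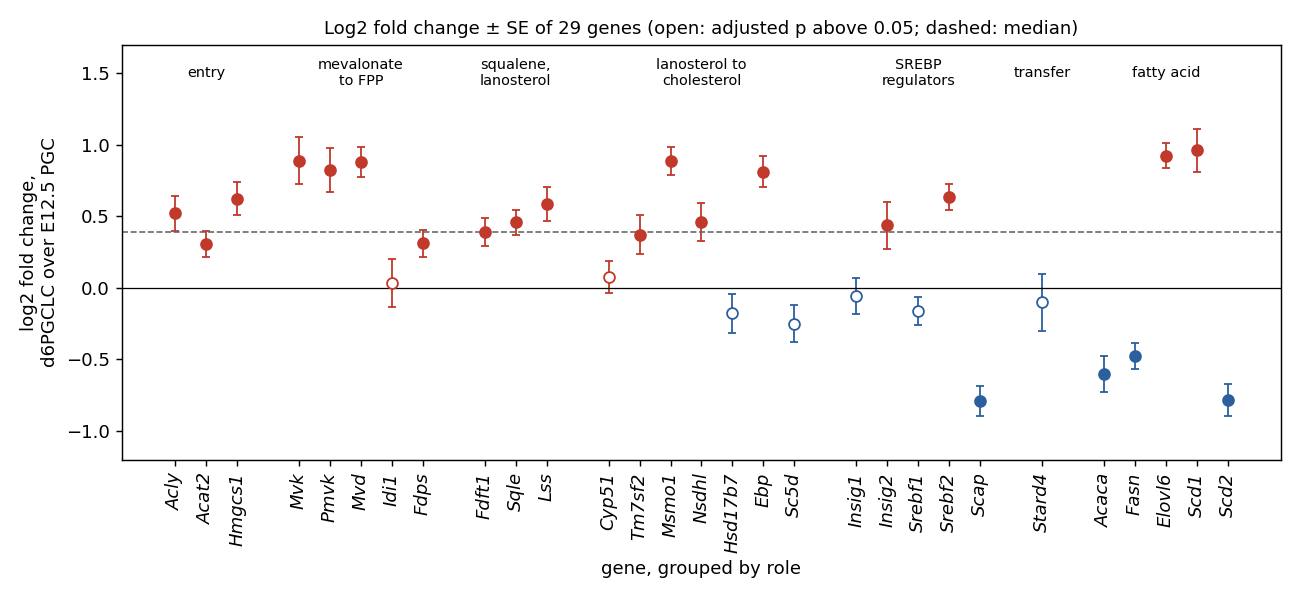
Log2 fold change (vertical axis, d6PGCLC over E12.5 PGC) of the 29 genes, grouped by role along the horizontal axis, with the standard error of the fit as bars. Filled points passed an adjusted p of 0.05 and open points did not, and the dashed line is the median of 0.39. FPP is farnesyl diphosphate. The filled points of the 4 groups of sterol synthesis all lie above 0, and those of the fatty acid group lie on both sides.

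Levels are compared between genes in RPKM (reads relative to counted exon length and library size). In d6PGCLCs the highest of the 29 genes was Srebf2, at 164.9 ± 17.6 RPKM (SD, n = 4), followed by Fdps at 141.9 ± 17.9 RPKM. In E12.5 PGCs the order of these was the other way, with Fdps at 114.2 ± 4.51 and Srebf2 at 106.02 ± 7.26 RPKM. Neither gap was larger than the sum of the SDs. The lowest were Idi1 in d6PGCLCs, at 4.14 ± 0.58 RPKM, and Insig2 in E12.5 PGCs, at 3.87 ± 0.394 RPKM. The fatty acid synthase gene Fasn ranked 3 of 29 in E12.5 PGCs and 9 of 29 in d6PGCLCs, and the desaturase gene Scd2 moved from rank 4 to rank 14. The methyl sterol oxidase gene Msmo1 moved the other way, from rank 10 to rank 5, and the elongase gene Elovl6 from rank 11 to rank 6.

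**Figure D2:**
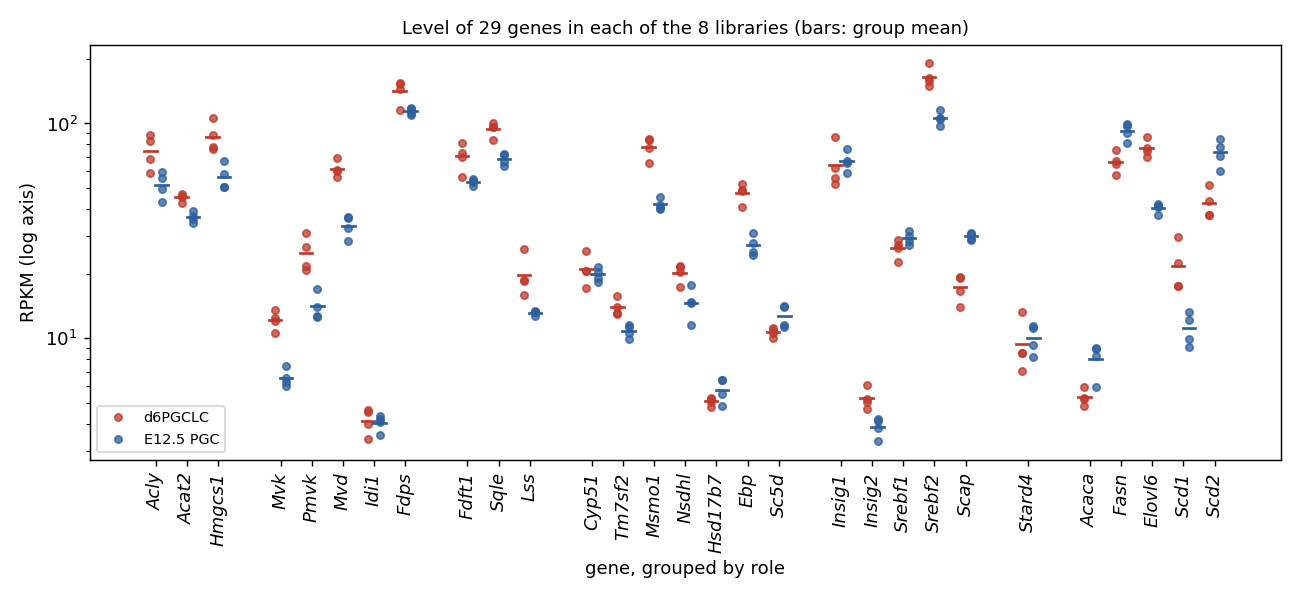
RPKM (vertical log axis) of the 29 genes in each library, with red points for the 4 d6PGCLC libraries, blue points for the 4 E12.5 PGC libraries and a bar at each group mean. Fdps and Srebf2 are at the top in both groups, with Idi1 lowest in d6PGCLCs and Insig2 lowest in E12.5 PGCs, and the red points lie above the blue ones for most of the sterol synthesis genes on the left.

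The 3 genes that supply acetyl-CoA units and open the pathway were all called higher, against 28.1% of the 11487 genes. Hmgcs1, whose enzyme condenses acetoacetyl-CoA with acetyl-CoA, stood at 106.3, 75.9, 77.3 and 88.1 RPKM in d6PGCLC replicates 1 to 4 and at 66.8, 50.7, 57.9 and 50.5 RPKM in E12.5 PGC replicates 1 to 4. Every d6PGCLC library lay above every E12.5 PGC library. The log2 fold change was 0.62 ± 0.12 (SE, adjusted p = 0.000194). Acly, which cleaves citrate to cytosolic acetyl-CoA and so feeds both routes, had a log2 fold change of 0.52 ± 0.12 (adjusted p = 0.00225), although d6PGCLC replicate 3, at 58.97 RPKM, lay below the 59.6 RPKM of E12.5 PGC replicate 1. Acat2, the cytosolic acetoacetyl-CoA thiolase, rose by the least of the 18 genes, with a log2 fold change of 0.31 ± 0.09 (adjusted p = 0.0121). With an added offset that smooths out the trend of fold change with exonic length, it was 0.20 and not called (adjusted p = 0.0807), the only one of the 18 alternatives under which it lost its call.

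Of the 5 genes between mevalonate and farnesyl diphosphate, 4 were called higher, against 28.1% of the 11487 genes, and 1 was not called. The kinases and the decarboxylase rose together. Mvk, the mevalonate kinase gene, stood at 10.5, 12.01, 13.5 and 12.4 RPKM in d6PGCLCs and at 6.00, 6.25, 7.41 and 6.51 RPKM in E12.5 PGCs, without overlap, a log2 fold change of 0.89 ± 0.16 (adjusted p = 0.000184). Pmvk, the phosphomevalonate kinase gene, had a log2 fold change of 0.82 ± 0.15 (adjusted p = 0.000207). Mvd, which decarboxylates mevalonate diphosphate, had one of 0.88 ± 0.10 (adjusted p = 7.8e-07). Idi1, the isomerase that makes dimethylallyl diphosphate, stood at 4.14 ± 0.58 RPKM against 4.04 ± 0.358 RPKM, with a log2 fold change of 0.03 ± 0.17 (adjusted p = 1). Fdps, the farnesyl diphosphate synthase gene and the most abundant transcript of these steps, was higher by 0.31 ± 0.10 on the log2 scale (adjusted p = 0.0147), with overlap through d6PGCLC replicate 3. Without d6PGCLC replicate 2 the adjusted p of Fdps was 0.0526, and with the offset for exonic length it was 0.0969 at a log2 fold change of 0.20.

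The 3 genes that commit farnesyl diphosphate to sterols were all called higher, against 28.1% of the 11487 genes. Each was without overlap between the groups, as were 51.1% of the 11487 genes. Lss, the lanosterol synthase gene, stood at 26.0, 18.7, 16.0 and 18.4 RPKM in d6PGCLCs and at 13.3, 13.4, 12.7 and 13.3 RPKM in E12.5 PGCs. The d6PGCLC libraries were spread, with replicate 1 highest, and the E12.5 PGC libraries were close to one another. The log2 fold change was 0.59 ± 0.12 (adjusted p = 0.000465). Fdft1, the squalene synthase gene, rose by 0.39 ± 0.10 on the log2 scale (adjusted p = 0.0038), and Sqle, the squalene epoxidase gene, rose by 0.46 ± 0.09 (adjusted p = 0.000271).

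Between lanosterol and cholesterol, 4 of the 7 measured genes were called higher, none was called lower and 3 were not called. The shares of the 11487 genes called higher and lower were 28.1% and 25.6%. Msmo1, whose enzyme starts the removal of the methyl groups at carbon 4, stood at 84.7, 83.6, 65.3 and 77.2 RPKM in d6PGCLCs and at 40.1, 45.6, 41.9 and 40.5 RPKM in E12.5 PGCs, the log2 fold change of 0.89 ± 0.10 being the largest of this group (adjusted p = 3.9e-07). Nsdhl, which acts on the same methyl groups, rose by 0.46 ± 0.13 (adjusted p = 0.00911). Hsd17b7, the ketosteroid reductase gene of that same removal, was at a log2 fold change of -0.18 ± 0.14 (adjusted p = 0.4). Ebp, the sterol isomerase gene, rose by 0.81 ± 0.11 (adjusted p = 4.8e-06). Nsdhl and Ebp lie on the X chromosome, where the median log2 fold change over 431 genes was -0.07 against 0.01 over 11037 autosomal genes.

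Cyp51, the lanosterol demethylase gene, was at 20.9 ± 3.37 RPKM in d6PGCLCs and 19.8 ± 1.41 RPKM in E12.5 PGCs, a log2 fold change of 0.08 ± 0.11 (adjusted p = 0.768). Sc5d, which introduces the last ring double bond, was at 10.7 ± 0.511 against 12.7 ± 1.49 RPKM, with a log2 fold change of -0.25 ± 0.13 (adjusted p = 0.175). Its groups did not overlap, and with the offset for exonic length it was called lower (-0.36, adjusted p = 0.0318). Tm7sf2, a sterol reductase gene, was called higher at 0.37 ± 0.14 (adjusted p = 0.0408), with no overlap, but close to the threshold. Its adjusted p was 0.0693 without d6PGCLC replicate 2, 0.151 without d6PGCLC replicate 3, and 0.11, 0.0531, 0.114 and 0.0649 without E12.5 PGC replicates 1 to 4 in turn.

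Over the 15 genes of the table from mevalonate to cholesterol, that is without the 3 entry genes, 11 were called higher and none lower, against 28.1% and 25.6% of the 11487 genes. DESeq2 gave the same counts, but with the offset for exonic length 9 were called higher (not Fdps or Tm7sf2) and 1 lower (Sc5d). Summed over these 15 genes, the level was 672.2, 653.9, 546.5 and 626.3 RPKM in d6PGCLC replicates 1 to 4 and 433.3, 441.6, 444.8 and 441.4 RPKM in E12.5 PGC replicates 1 to 4. The 4 E12.5 PGC libraries differed by far less from one another than the d6PGCLC libraries did, and every d6PGCLC library lay above them. The ratio of the means was 1.42. By role, this ratio was 1.43 for the entry genes, 1.42 for the steps to farnesyl diphosphate, 1.36 for the steps to lanosterol and 1.48 for the steps after lanosterol. It was 1.18 for the SREBP regulators, 0.937 for the transfer gene Stard4 and 0.945 for the fatty acid genes. Single abundant genes weigh most in such sums, and no test was made of them.

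**Figure D3:**
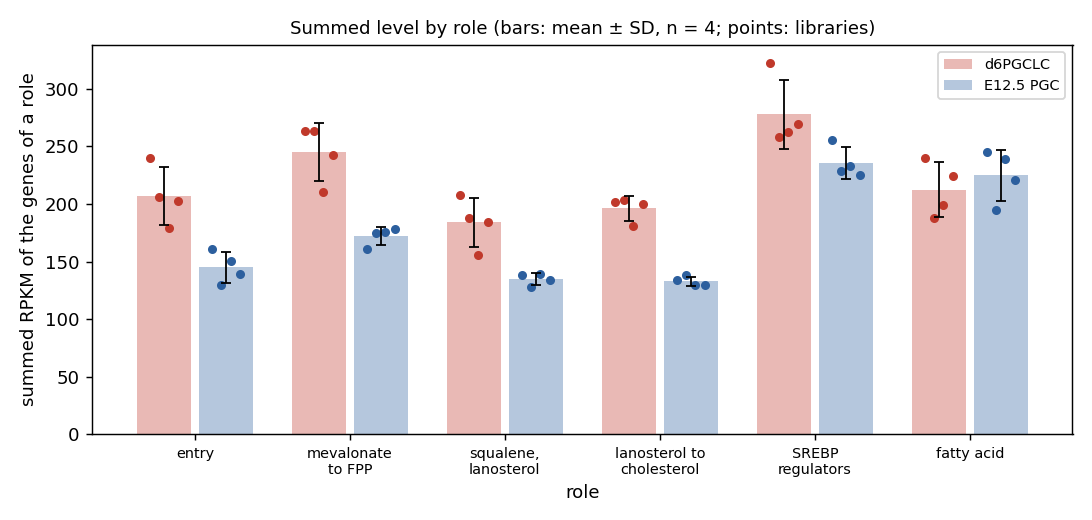
Summed RPKM (vertical axis, from 0) of the genes of each role except the single transfer gene Stard4, as bars of the mean with SD (n = 4) and a point per library, red for d6PGCLC and blue for E12.5 PGC. In the 4 groups on the left the d6PGCLC libraries lie above the E12.5 PGC libraries, and in the fatty acid group the 2 sets of points overlap.

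The 5 regulators split. Srebf2, the SREBP that acts mainly on sterol genes, stood at 190.2, 150.05, 157.2 and 162.2 RPKM in d6PGCLCs and at 115.3, 97.6, 105.9 and 105.3 RPKM in E12.5 PGCs, without overlap, a log2 fold change of 0.64 ± 0.09 (adjusted p = 7.4e-06). Srebf1, which acts mainly on fatty acid genes, stood at 26.2, 22.6, 28.6 and 27.3 RPKM in d6PGCLCs and at 30.03, 31.6, 27.2 and 28.3 RPKM in E12.5 PGCs. These ranges overlapped, and the log2 fold change of -0.16 ± 0.10 was not called (adjusted p = 0.243).

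Scap, the escort of both SREBPs, moved against Srebf2. It stood at 14.0, 16.6, 19.3 and 19.005 RPKM in d6PGCLCs and at 31.0, 29.1, 30.6 and 28.6 RPKM in E12.5 PGCs. The highest d6PGCLC library was well under the lowest E12.5 PGC library, and the level in E12.5 PGCs was 1.73 times that in d6PGCLCs by the fit (log2 fold change -0.79 ± 0.10, adjusted p = 3.1e-06). Per library, Scap was between 0.0736 and 0.123 of Srebf2 in d6PGCLCs and between 0.269 and 0.298 of it in E12.5 PGCs, a ratio chosen after the values had been seen and not tested.

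Of the INSIG genes, whose products retain SCAP, Insig1 stood at 86.5, 62.3, 52.2 and 55.6 RPKM in d6PGCLCs and at 75.7, 66.9, 65.3 and 58.7 RPKM in E12.5 PGCs. The ranges overlapped, with d6PGCLC replicate 1 the highest of all 8 libraries, and the log2 fold change was -0.06 ± 0.13 (adjusted p = 0.957). Insig2 stood at 5.21, 6.07, 4.69 and 5.04 RPKM in d6PGCLCs and at 3.82, 3.33, 4.11 and 4.21 RPKM in E12.5 PGCs, a low level with no overlap. Its log2 fold change of 0.44 ± 0.16 passed the test only closely (adjusted p = 0.0437). The adjusted p was 0.137 and 0.0602 without d6PGCLC replicates 2 and 4, and 0.0799, 0.124, 0.0776 and 0.0626 without E12.5 PGC replicates 1 to 4 in turn. Stard4, a carrier that moves sterols between membranes, was at 9.37 ± 2.69 against 9.999 ± 1.54 RPKM (log2 fold change -0.10 ± 0.20, adjusted p = 0.907).

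The 5 fatty acid genes were all called, 2 higher and 3 lower, against 53.6% of the 11487 genes called in either direction. The genes of chain assembly were lower in d6PGCLCs. Fasn, which encodes the synthase of palmitate, stood at 75.1, 57.6, 64.9 and 66.8 RPKM in d6PGCLCs and at 96.9, 81.0, 99.0 and 90.5 RPKM in E12.5 PGCs, without overlap, a log2 fold change of -0.48 ± 0.09 (adjusted p = 0.000326). Acaca, which makes the malonyl-CoA that Fasn uses, had a log2 fold change of -0.60 ± 0.12 (adjusted p = 0.000582). It overlapped through E12.5 PGC replicate 2, whose 5.90 RPKM lay under the 5.91 RPKM of d6PGCLC replicate 1. These are the genes with the longest counted exons of the 29, 11658 and 11192 bases. With the offset for exonic length the log2 fold changes were -0.23 for Fasn and -0.35 for Acaca, and both were still called lower (adjusted p = 0.00871 and 0.00911).

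Elovl6, which lengthens palmitate to stearate, moved the other way. It stood at 77.2, 69.5, 74.1 and 86.3 RPKM in d6PGCLCs and at 41.2, 37.7, 40.8 and 42.1 RPKM in E12.5 PGCs, with a log2 fold change of 0.92 ± 0.09 and the lowest adjusted p of the 29 genes (3.3e-08). Elovl6 was therefore between 1.03 and 1.29 times Fasn in the d6PGCLC libraries and between 0.412 and 0.465 times Fasn in the E12.5 PGC libraries, a ratio chosen after the values had been seen and not tested.

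The stearoyl-CoA desaturases, which put the first double bond into saturated chains, exchanged weight. Scd1 stood at 29.6, 17.5, 17.5 and 22.4 RPKM in d6PGCLCs and at 13.3, 9.97, 12.2 and 9.16 RPKM in E12.5 PGCs, the largest rise of the 29 genes (log2 fold change 0.96 ± 0.15, adjusted p = 2.7e-05). Scd2 stood at 51.7, 37.6, 37.4 and 43.7 RPKM in d6PGCLCs and at 84.4, 60.3, 77.7 and 70.8 RPKM in E12.5 PGCs (log2 fold change -0.78 ± 0.11, adjusted p = 9.5e-06). Neither gene overlapped between the groups, and Scd2 was above Scd1 in all 8 libraries. Scd1 and Scd2 are related in sequence, and only uniquely mapped reads had been counted. How many reads this cost each gene was not tested.

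The ratio of paralogs was then compared within each library, which needs no scaling between libraries. Scd2 exceeded Scd1 by 1.75 to 2.15 times in d6PGCLCs and by 6.05 to 7.73 times in E12.5 PGCs. The mean log2 ratio was 0.99 ± 0.14 against 2.72 ± 0.16 (SD, n = 4), a difference of -1.73 (exact permutation over libraries, two-sided, p = 0.0286 and 0.0429 after adjustment over 3 ratios). With 4 libraries a group, no exact p can fall below 0.0286. Since Scd1 and Scd2 had each separated the groups, in opposite directions, this p was fixed by the single-gene values and adds no support to them. Srebf1 was between 0.138 and 0.182 of Srebf2 in d6PGCLCs and between 0.256 and 0.324 of it in E12.5 PGCs, a difference of -0.80 in the mean log2 ratio (exact permutation p = 0.0286, adjusted 0.0429). Insig1 exceeded Insig2 by 10.3 to 16.6 times in d6PGCLCs and by 13.9 to 20.1 times in E12.5 PGCs. These ranges overlapped through d6PGCLC replicate 1, and the difference of -0.52 did not pass the test (exact permutation p = 0.0857, adjusted 0.0857).

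**Figure D4:**
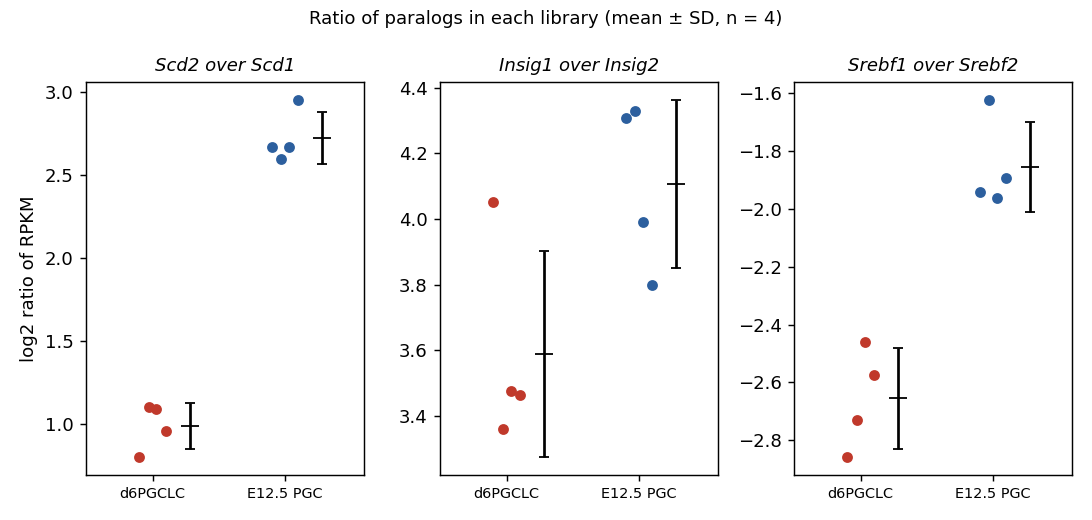
Log2 ratio of RPKM (vertical axes, each with its own scale) of 3 pairs of paralogs in each library, red for d6PGCLC and blue for E12.5 PGC, with the mean and SD (n = 4) in black beside the points. The groups are apart for Scd2 over Scd1 and for Srebf1 over Srebf2, and overlap through 1 d6PGCLC library for Insig1 over Insig2.

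Within a group, the same libraries were often the highest or the lowest. In d6PGCLCs, replicate 1 was the highest library for 15 genes and replicate 3 the lowest for 18. In E12.5 PGCs, replicate 1 was the highest for 12 genes and replicate 2, the library with the high dissociation response genes, the lowest for 11. The SD of log2 CPM within a group had a median of 0.154 over the genes.

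No gene was called among the remaining genes of sterol synthesis and of its isoprenoid branches, against 53.6% of the 11487 genes called in either direction. Of 5 other sterol synthesis genes, of which Idi2 had a mean of only 0.25 counts, none was called by edgeR, none had an unadjusted p under 0.05, and DESeq2 called 0. Of 9 genes of the isoprenoid branches, which draw on farnesyl diphosphate for prenyl groups, dolichol and ubiquinone, none was called by edgeR either. Among them Ggps1 alone, the synthase of geranylgeranyl diphosphate, had an unadjusted p under 0.05, and DESeq2 called 0. Without d6PGCLC replicate 1, edgeR called 1 of the 9 genes.

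Of 12 other genes of SREBP control, 2 were called higher and 4 lower, a share called near the same 53.6%. Mbtps2, the protease that makes the second cut in the SREBPs, was at 25.7 ± 3.06 CPM against 15.5 ± 2.63 CPM, higher in the d6PGCLCs (log2 fold change 0.73 ± 0.15, adjusted p = 0.000755). Of the subunits of NF-Y, whose box is printed in capitals in the promoter stretches, Nfyc was called lower at -0.36 ± 0.11 (adjusted p = 0.0145), and Nfya and Nfyb were not called.

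Of 7 genes of sterol uptake and lysosomal export, 4 were called higher and none lower, although Tmem97 had a lower value at an unadjusted p under 0.05. The share called was near the same 53.6%, and 7 of the 18 alternatives called 3 of the 7 genes. Lipa, the lysosomal acid lipase gene, was low but without overlap, at 11.98 ± 0.968 against 5.81 ± 1.12 CPM (log2 fold change 1.05 ± 0.19, adjusted p = 0.000138).

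The 6 genes of the liver X receptors (LXRs) and sterol efflux were all called, 4 lower and 2 higher, against the same 53.6%. Mylip, a ubiquitin ligase gene and an LXR target, stood at 3.06, 2.85, 0.747 and 2.18 CPM in d6PGCLCs and at 9.98, 18.4, 9.87 and 11.6 CPM in E12.5 PGCs (log2 fold change -2.53 ± 0.32, adjusted p = 1.2e-06). The sterol exporters Abca1 and Abcg1, picked from this list after their values had been seen, had log2 fold changes of -1.96 ± 0.27 (adjusted p = 4.9e-06) and -1.16 ± 0.10 (adjusted p = 7.1e-09), each without overlap. Apoe, the apolipoprotein that carries exported lipid, moved against them, at 425.7, 419.9, 548.8 and 486.2 CPM in d6PGCLCs and 131.4, 224.0, 171.6 and 185.0 CPM in E12.5 PGCs (log2 fold change 1.40 ± 0.12, adjusted p = 1.4e-08). Of the genes that encode the LXRs themselves, Nr1h2 was called higher, at 154.3 ± 8.73 against 90.1 ± 12.9 CPM without overlap (log2 fold change 0.77 ± 0.10, adjusted p = 4.1e-06), and Nr1h3 was called lower at a mean of only 3.38 counts per library.

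Of 6 genes of esterification and lipid droplets, 3 were called higher and 1 lower, against the same 53.6%. Plin3, a coat protein of lipid droplets, averaged 4.74 ± 2.40 CPM in the 4 d6PGCLC libraries against 0.601 ± 0.324 CPM (log2 fold change 2.97 ± 0.45, adjusted p = 6.3e-06), with the d6PGCLC mean raised by the 8.30 CPM of replicate 1. Dgat2, an acyltransferase that completes triglycerides, stood at 6.06 ± 0.92 against 21.4 ± 2.56 CPM (log2 fold change -1.82 ± 0.17, adjusted p = 3.4e-08).

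Of the 20 other measured genes of fatty acid synthesis, elongation and desaturation, 6 were called higher and 5 lower, shares near the 28.1% and 25.6% of the 11487 genes. The elongase gene Elovl7 was the highest in fold among those called higher, at 2.35 ± 0.378 against 0.683 ± 0.33 CPM (log2 fold change 1.81 ± 0.40, adjusted p = 0.000748). Elovl4, the elongase gene of very long chains, was the lowest, at 1.88 ± 0.611 against 4.79 ± 1.6 CPM (log2 fold change -1.35 ± 0.31, adjusted p = 0.00153). Acacb, the carboxylase of the mitochondrial surface, whose product restrains fatty acid import, was lower by the main test (log2 fold change -0.43 ± 0.13, adjusted p = 0.0111) but not with the offset for exonic length (-0.20, adjusted p = 0.23).

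Of 12 measured genes of fatty acid oxidation, 5 were called higher and 2 lower, a share called near the same 53.6%. Cpt1b, a carnitine palmitoyltransferase that passes acyl chains towards the mitochondrion, stood at 11.2, 7.64, 17.2 and 13.5 CPM in d6PGCLCs and at 0.873, 1.68, 0.83 and 0.181 CPM in E12.5 PGCs. No library of one group came near the other, and the log2 fold change was 3.81 ± 0.40 (adjusted p = 3.3e-08). Hadha, a subunit of the mitochondrial trifunctional protein, was lower at 45.9 ± 2.02 against 62.2 ± 6.66 CPM (log2 fold change -0.44 ± 0.11, adjusted p = 0.00345).

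**Figure D5:**
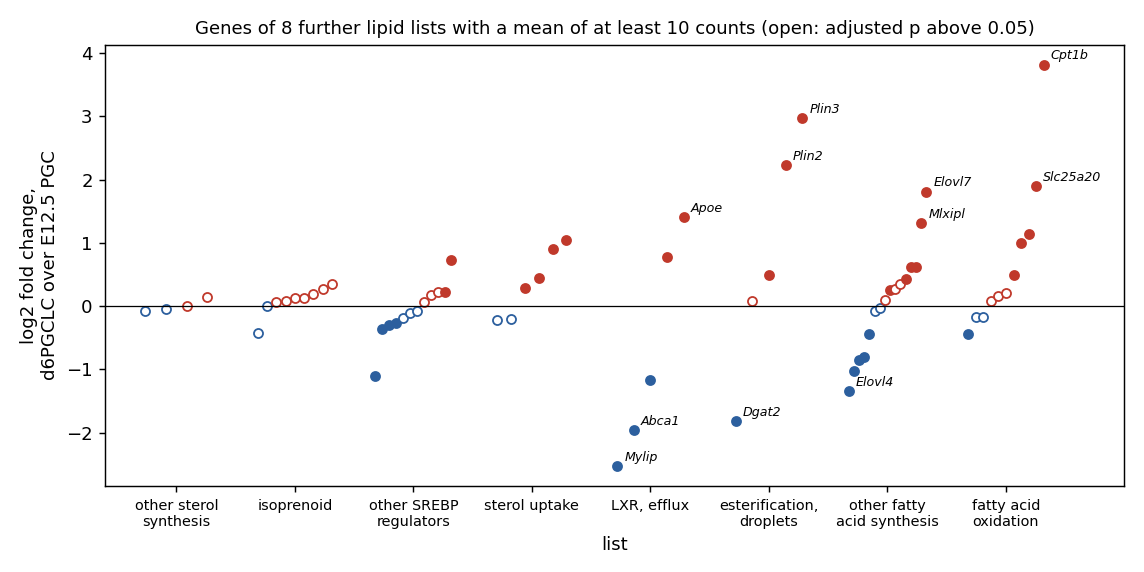
Log2 fold change (vertical axis, d6PGCLC over E12.5 PGC) of 68 genes averaging 10 or more counts in 8 further lists of lipid metabolism (horizontal axis), sorted by value within each list, with filled points for an adjusted p of at most 0.05. The sterol synthesis and isoprenoid lists hold only open points, from -0.43 (Pggt1b) to 0.35 (Pdss2). The lists of efflux, lipid droplets and oxidation hold the largest changes.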

How the data were processed

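RNA-seq libraries (poly(A), TruSeq Stranded mRNA, single-end) were made from 4 d6PGCLC and 4 E12.5 PGC pools. The authors aligned reads with STAR to GRCm38 with spike-in sequences added, chose 1 isoform per gene at random, and deposited raw counts of uniquely mapped reads on its exons, with the exonic length. Genes with overlapping promoters had been removed at random. Whether strand was used in counting is not given in the sources used here. A RefSeq symbol was matched for 21907 of 21950 genes, and 43 had none. Counts were fitted with edgeR 4.0.16 in R 4.3.3 (TMM, glmQLFit and glmQLFTest, prior count 0.125, all genes, cell type as the only term), with Benjamini-Hochberg adjustment over all 21950 genes. Standard errors come from the information of the fit and the quasi-likelihood variance. CPM and RPKM used TMM-scaled library sizes. Paralog ratios used RPKM with 0.5 counts added and an exact permutation of libraries.

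The genes and lists were chosen with earlier results of these data known. Values in every library are given for the called gene of largest change in each direction in each role, for the 5 regulators and for the paralogs, and for further genes where they help. From each further list the called gene of largest change in each direction with a mean of at least 10 counts was named, together with Acacb. Results for some genes of these lists are not reported here. Abca1, Abcg1, Nr1h2, Nr1h3, Ggps1, Tmem97 and the NF-Y subunits were named after their values had been seen. Results were recomputed with DESeq2 1.42.0, with edgeR's likelihood ratio test, and with 3 other scalings, 2 filters, a prior count of 2, a replicate block, a loess offset on exonic length (span 0.5) and leaving out each library. On simulated counts with the same 21950 genes and 4 libraries per group, 99 of 100 genes changed 2-fold and 100 of 100 changed 4-fold were called, as were 7 of 21750 unchanged genes. The changed genes were drawn from those with higher expected counts, and all genes were given the same dispersion. Changes of less than 2-fold were not simulated, so these counts do not give the power for them. One count was worth from 0.083 to 0.128 CPM, and precision stated from counts covers counting error only.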

Additional observations from a re-analysis of the deposited data

Results flagged for a closer look

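Lss, the lanosterol synthase gene, was at 99.9 CPM in E12.5 PGC replicate 3, below the 104.5 to 105.2 CPM of the other 3 E12.5 PGC libraries, a gap of 0.871 of the range of the group and past the 95% critical value of Dixon's test. Of 58 groups of 4 libraries examined over the 29 genes this was the only one so far apart, and chance gives about 2.9. The 4 E12.5 PGC libraries all lay below the 125.8 CPM of the lowest d6PGCLC library.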

How the results depend on the processing

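Over 10 alternative settings and 8 fits that each left out 1 library, the number of the 29 genes called lay between 19 and 22, the number called higher between 14 and 18, the number called lower at 4 or 5, and the number past the additional fold threshold was 0. The median log2 fold change of the 29 genes lay between 0.35 and 0.48. No called gene of the 29 changed direction. With the offset for exonic length, Acat2 (0.20, adjusted p = 0.0807), Fdps (0.20, 0.0969), Tm7sf2 (0.26, 0.154), Insig2 (0.35, 0.113) and Acacb (-0.20, 0.23) were no longer called, and Sc5d was called lower (-0.36, 0.0318). With library size alone or upper quartile scaling, Tm7sf2 (0.34 and 0.33, adjusted p = 0.0726 and 0.0633) and Insig2 (0.40 and 0.40, 0.0619 and 0.0646) were not called. Leaving out 1 library moved the number of isoprenoid genes called between 0 and 1, with 1 called without d6PGCLC replicate 1. Same-numbered libraries of the 2 groups did not pair, since the correlations of their deviations were 0.273, 0.104, -0.0227 and 0.0352 and 2 of 4 libraries correlated best with their own number. With the replicate block, 22 genes were called, 18 higher and 4 lower. Where a setting changed a call, the cause was not tested. The depth limits Nr1h3, Plin3, Elovl7 and other genes of few counts more than the 29 genes, whose mean counts ran from 107.9 to 8901 per library.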
